A study of Mus musculus with 9 samples.

Results

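In mouse skin treated with imiquimod and oral vanillin, 49 genes lay lower than in skin treated with imiquimod alone and also lower than in mock-treated skin. They were chosen from 20377 named array probes by their log2 intensities, with values under 1 set to 1. A gene was taken where its Vanillin mean lay at least 0.7 log2 units below both the IMQ mean and the Mock mean and its highest Vanillin array lay below the lowest of the other 6 arrays. Its mean over the 9 arrays also had to be 8 or more, and symbols beginning CD74, H2-, KRT or ALDH were left out. Of 26423 probes in all, 69 met the conditions on values. Of these, 15 had no gene name and 5 carried a left-out symbol (Krt84, Krt28, Krtap13 and 2 probes of Cd74). Each of the remaining 49 stood for a different gene out of the 17742 named.

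RNA labelled with Cy5 was measured on 9 one-colour arrays, 3 for each of 3 groups of female BALB/c mice treated for 7 days. Vanillin mice received imiquimod on the skin and 100 mg/kg of vanillin by mouth, IMQ mice received imiquimod on the shaved back, and Mock mice received Vaseline cream there. Imiquimod is a toll-like receptor agonist used to provoke psoriasis-like inflammation in mouse skin, and vanillin is the main aroma compound of vanilla. No group received vanillin without imiquimod, and no age is given. Nothing in the labels ties each array to a mouse of its own, so every p-value here rests on the spread among 3 arrays a group, part or all of which may be technical. The tissue label names skin and the extraction text names muscle. Markers of differentiated keratinocytes had a median intensity percentile of 99.2 and skeletal muscle markers one of 98.3, so both tissues' defining genes were bright here. The arrays' median intensities, from 629 to 631, were nearly equal as deposited, and precision is limited by how few arrays there are.

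Skin holds epidermal keratinocytes and hair follicles above a dermis with fibroblasts, nerves, vessels and resident immune cells. Its macrophages and dendritic cells carry Fc receptors and respond to complement, while its epithelial cells control calcium, zinc and metal ions that steer their differentiation. Sulphur amino acids feed both the keratins of the hair shaft and glutathione, the main thiol antioxidant of cells. The 49 genes are described by 7 groups of roles, which were assigned from what each gene is known to do.

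With the same conditions on values as the 69 probes lowest in Vanillin skin, 83 were highest in Vanillin skin, 1065 were highest and 815 lowest in IMQ skin, and 902 were highest and 691 lowest in Mock skin. Among the 49, the distance from the Vanillin mean to the nearer of the IMQ and Mock means, called the gap here, had a median of 0.82 log2 units and ran from 0.71 to 1.33. That is 1.63-fold to 2.52-fold lower in Vanillin skin, and for 14 genes it reached 2-fold. The nearer group was IMQ for 27 genes and Mock for 22. These differences chose the genes, so they are given as a description without a test, and a lower signal from fewer cells of a type cannot be told apart in bulk RNA from less RNA per cell. Vanillin minus IMQ had a median of -0.93 log2 units over the 49 and 0.03 over all probes, and Vanillin minus Mock had medians of -0.99 and 0.01.

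A single array carried many of these gaps. Vanillin replicate 3 was the lowest of the Vanillin arrays for 38 of the 49 genes (77.6%), against 42.3% of all probes. Its correlation with the other Vanillin arrays was 0.984 and 0.985 across probes, which are not independent replicates, while those 2 arrays correlated at 0.994 with each other. The Vanillin arrays spread over 1 log2 unit or more for 21 of the 49 genes (42.9%), against 7.00% of all probes and 4.70% of probes with a mean of 8 or more. The rule used the Vanillin values, so these shares of members are not free of the choice, and how far they depend on it was not tested. Of these 21 genes, 19 were lowest on replicate 3, and Prkd3 and Tmem115 were lowest on replicate 2. Over all 1850 probes with that spread, 51.1% were lowest on replicate 3. The other 28 spread by less, 21 of them by under 0.5 log2 units. Without Vanillin replicate 3 the gap stayed at 0.7 or more for 24 genes and lay below it for 25, with a range of 0.15 to 1.39. The whole rule then gave 37 genes, 24 of them among the 49. Leaving out Vanillin replicate 1, Vanillin replicate 2 or Mock replicate 1 gave 119, 76 and 75 genes, of which 48, 46 and 49 were among the 49. In all, 20 genes met the rule whichever array was left out.

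**Figure D1:**
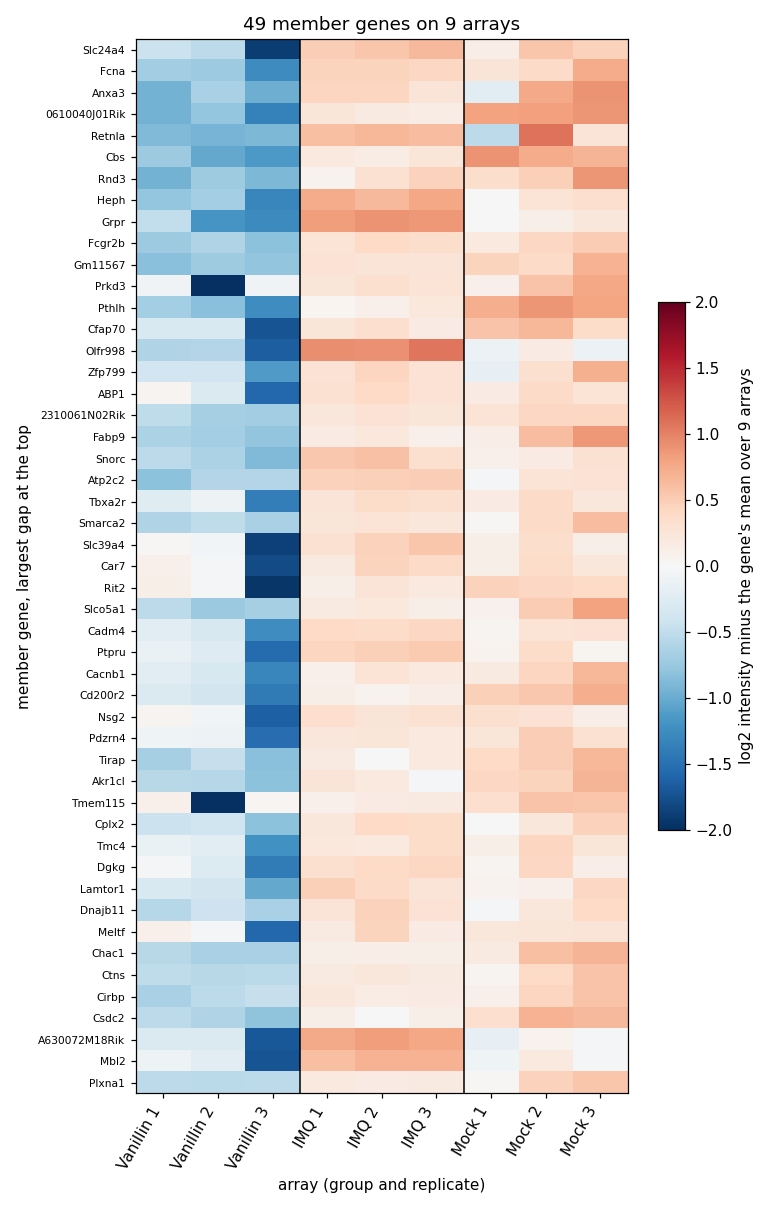
Log2 intensity of each of the 49 genes on each array, minus the gene's mean over the 9 arrays (colour, in log2 units); genes run down by gap and arrays run across as Vanillin, IMQ and Mock. The Vanillin columns are the bluest throughout, and most of the darkest cells are those of Vanillin replicate 3, which was lowest for 38 genes, with those of Prkd3 and Tmem115 on replicate 2.

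**Figure D2:**
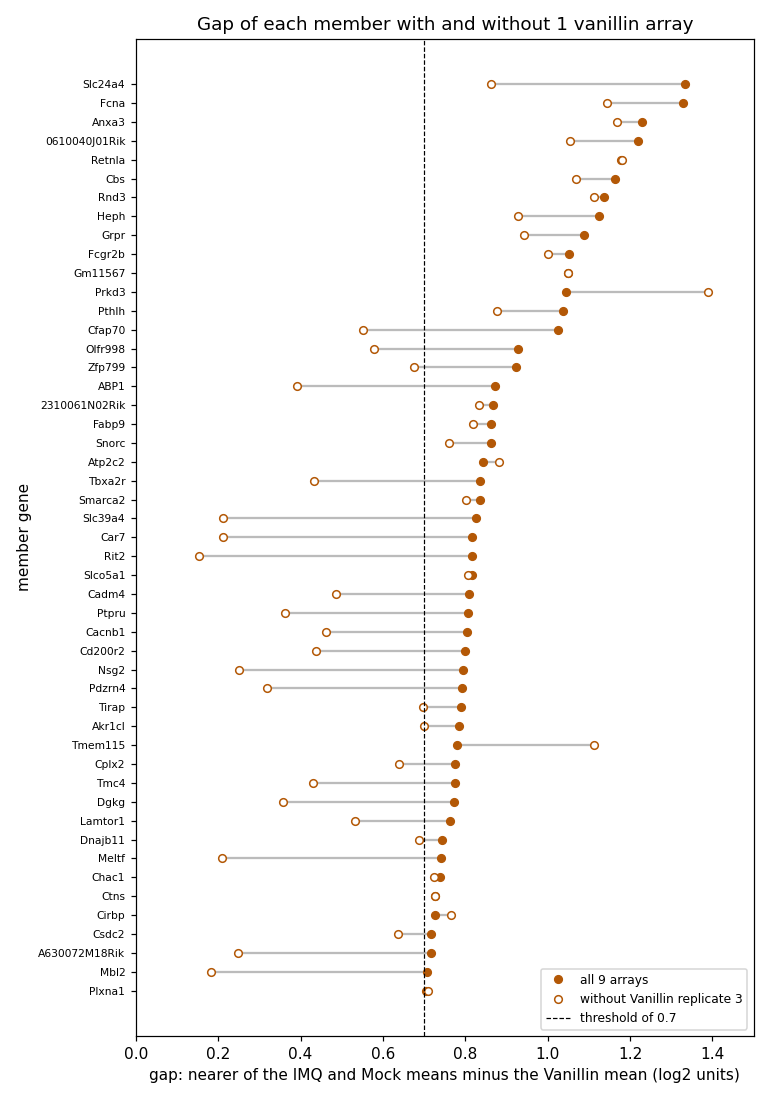
Gap of each gene in log2 units with all 9 arrays (filled) and without Vanillin replicate 3 (open); the dashed line is the threshold of 0.7. The open points of 25 genes lie left of the line, and those of Prkd3 and Tmem115 lie far right of their filled points.

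The start sites of the genes with the largest gaps are shown so that their promoters can be set against the values that follow. RefSeq promoter windows (GRCm38.p6, 250 bases before to 50 after a start site) were found for 37 of the 49 genes. The 5 named genes with the largest gap and a window were Slc24a4 (chr12:102128477-102128776, plus strand), Fcna (chr2:25627925-25628224, minus strand), Retnla (chr16:48842359-48842658, plus strand), Cbs (chr17:31637156-31637455, minus strand) and Rnd3 (chr2:51149062-51149361, minus strand). Capitals mark matches to the motifs searched, on either strand.
Slc24a4: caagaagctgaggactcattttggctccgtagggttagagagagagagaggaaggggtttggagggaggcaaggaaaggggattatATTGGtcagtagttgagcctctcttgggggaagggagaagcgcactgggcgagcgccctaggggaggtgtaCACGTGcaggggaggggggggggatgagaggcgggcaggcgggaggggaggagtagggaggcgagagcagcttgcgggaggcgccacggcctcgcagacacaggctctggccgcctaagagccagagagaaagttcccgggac
Fcna: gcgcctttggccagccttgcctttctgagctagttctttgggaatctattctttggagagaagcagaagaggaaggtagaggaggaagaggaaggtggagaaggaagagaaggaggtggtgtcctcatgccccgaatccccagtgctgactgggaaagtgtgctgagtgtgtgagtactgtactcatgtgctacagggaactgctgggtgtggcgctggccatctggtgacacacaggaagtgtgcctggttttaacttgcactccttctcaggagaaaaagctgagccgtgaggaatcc
Retnla: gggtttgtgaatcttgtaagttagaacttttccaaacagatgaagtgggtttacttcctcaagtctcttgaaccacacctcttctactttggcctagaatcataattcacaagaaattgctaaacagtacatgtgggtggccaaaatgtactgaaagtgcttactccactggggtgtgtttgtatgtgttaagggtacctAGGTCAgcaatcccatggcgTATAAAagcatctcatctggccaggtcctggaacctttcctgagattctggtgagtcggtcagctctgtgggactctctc
Cbs: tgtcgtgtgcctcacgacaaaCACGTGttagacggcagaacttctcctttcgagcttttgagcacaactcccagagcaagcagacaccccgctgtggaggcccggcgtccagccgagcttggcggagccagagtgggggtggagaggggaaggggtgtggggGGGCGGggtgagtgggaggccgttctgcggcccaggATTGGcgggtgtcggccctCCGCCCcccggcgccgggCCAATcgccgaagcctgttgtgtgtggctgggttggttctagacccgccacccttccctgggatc
Rnd3: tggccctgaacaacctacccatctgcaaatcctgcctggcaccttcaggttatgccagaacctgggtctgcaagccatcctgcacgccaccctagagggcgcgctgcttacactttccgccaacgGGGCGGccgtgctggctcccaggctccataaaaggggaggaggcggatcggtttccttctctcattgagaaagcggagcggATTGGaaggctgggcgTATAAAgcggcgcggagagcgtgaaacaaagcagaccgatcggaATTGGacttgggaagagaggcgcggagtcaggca

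Retnla and Rnd3 held a TATAAA, beginning at positions -30 and -28 from the start site. Retnla also held AGGTCA, a nuclear receptor motif, at -50. Cbs held CACGTG, 2 GGGCGG boxes and 2 CCAAT boxes (read as ATTGG on the other strand), Slc24a4 held CACGTG and CCAAT, and Rnd3 held GGGCGG and 2 CCAAT boxes. Fcna held none of the 11 motifs in this window. A match is a description of letters and not a site of binding. Over the 37 genes, CCAAT was present in 51.4%, against 41.1% of the 27025 genes with a window, and GGGCGG in 45.9%, against 38.2%. CACGTG was present in 13.5%, against 8.09%, AGGTCA in 18.9%, against 18.1%, and TATAAA in 13.5%, against 15.7%. CCGGAAG (ETS) was present in 10.8%, against 9.93%, TTCNNNGAA (STAT) in 8.11%, against 9.55%, and TGACGTCA (CRE) in 2.70%, against 2.03%. TGANTCA (AP-1) was present in 2.70%, against 8.97%. The motifs of NRF1 and YY1 were in 0 of the 37, against 1.07% and 0.995%. None of these motifs contains another, though ETS and STAT matches can share bases. The 47 windows of the 37 genes had a median GC content of 57%, against 52.7% of all 32851 windows.

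Genes of immune recognition numbered 6. Fcna encodes ficolin A, a secreted lectin that starts the lectin pathway of complement and is made by macrophages in the mouse. It read 10.61, 10.57 and 10.03 log2 units on the Vanillin arrays, against 11.74, 11.75 and 11.71 on the IMQ arrays and 11.56, 11.68 and 12.05 on the Mock arrays. The highest Vanillin array lay 0.95 below the lowest of the others, and the gap of 1.33 was 1.14 without replicate 3. IMQ and Mock overlapped. Retnla, which encodes RELM-alpha, a secreted product of alternatively activated macrophages, was steady in Vanillin skin, at 12.73, 12.69 and 12.71. IMQ skin read 14.22, 14.28 and 14.22, and Mock skin read 13.09, 14.70 and 13.87. The Mock arrays thus spread by more than the gap of 1.18, and Mock replicate 1 came within 0.36 of the highest Vanillin array. Fcgr2b, the inhibitory Fc gamma receptor, read 9.18, 9.31 and 9.09 in Vanillin skin, 10.17, 10.30 and 10.26 in IMQ skin and 10.10, 10.32 and 10.42 in Mock skin. Its Vanillin arrays stood together, and its IMQ and Mock arrays overlapped.

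Tirap, the adaptor of toll-like receptors TLR2 and TLR4, read 11.68, 11.87 and 11.50 in Vanillin skin. IMQ skin read 12.53, 12.36 and 12.54, and Mock skin read 12.75, 12.83 and 13.00, so the 3 groups did not overlap. Another probe of Tirap, given further on, placed Vanillin above IMQ. Mbl2, a mannose-binding lectin of the same complement pathway as Fcna, read 9.85, 9.74 and 8.22 in Vanillin skin, 10.55, 10.64 and 10.64 in IMQ skin and 9.87, 10.15 and 9.91 in Mock skin. Here replicates 1 and 2 lay close to the Mock arrays, and the gap of 0.71 was 0.18 without replicate 3. Cd200r2, of the CD200 receptor family, likewise had its low value on replicate 3 (8.63, 8.54 and 7.5 in Vanillin skin), against means of 9.02 in IMQ skin and 9.49 in Mock skin.

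Transport of ions, metals and solutes gave 9 genes. Slc24a4, a potassium-dependent sodium/calcium exchanger, had the largest gap of the 49. It read 11.33, 11.25 and 9.88 in Vanillin skin, 12.26, 12.33 and 12.42 in IMQ skin and 11.91, 12.32 and 12.23 in Mock skin. Replicate 3 stood well below the other Vanillin arrays, and the gap of 1.33 was 0.86 without it. Heph encodes hephaestin, a copper ferroxidase that works with iron export. It read 11.22, 11.31 and 10.68 in Vanillin skin, 12.72, 12.64 and 12.76 in IMQ skin and 11.99, 12.27 and 12.32 in Mock skin, so that every Vanillin array was lowest and every IMQ array highest. Atp2c2, a Golgi pump for calcium and manganese, had the same order, with 11.40, 11.64 and 11.64 in Vanillin skin, 12.69, 12.71 and 12.72 in IMQ skin and 12.21, 12.50 and 12.51 in Mock skin.

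Ctns, which encodes the exporter of cystine from lysosomes, was steady on the Vanillin arrays. It read 12.37, 12.31 and 12.34 in Vanillin skin, 13.05, 13.10 and 13.06 in IMQ skin and 12.93, 13.27 and 13.44 in Mock skin, and its gap was 0.73 with and without replicate 3. Slco5a1, of the organic anion transporter family, also stood apart on every Vanillin array, with a gap of 0.82 that was 0.81 without replicate 3. For Slc39a4, the zinc importer ZIP4, the pattern rested on replicate 3. It read 11.28, 11.19 and 9.39 in Vanillin skin, 11.56, 11.70 and 11.80 in IMQ skin and 11.37, 11.60 and 11.36 in Mock skin. Without replicate 3 its gap of 0.83 was 0.21. Cacnb1, a beta subunit of voltage-gated calcium channels, read 7.96, 7.88 and 6.89 in Vanillin skin, 8.29, 8.47 and 8.38 in IMQ skin and 8.38, 8.63 and 8.85 in Mock skin. The iron-binding protein gene Meltf, Cacnb1 and Tmc4, of the transmembrane channel-like family, had gaps of 0.21, 0.46 and 0.43 without replicate 3, all below the threshold.

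Metabolic enzymes and lipid carriers gave 5 genes, of which 4 spread by under 0.5 log2 units on the Vanillin arrays. Cbs, cystathionine beta-synthase, which condenses homocysteine with serine, read 9.06, 8.75 and 8.62 in Vanillin skin. It read 9.97, 9.93 and 10.03 in IMQ skin and 10.68, 10.53 and 10.46 in Mock skin, so the 3 groups did not overlap. Chac1, an enzyme that breaks down glutathione and belongs to the stress response to amino acid shortage, stood apart on every Vanillin array. It read 14.76, 14.67 and 14.67 in Vanillin skin, 15.44, 15.45 and 15.43 in IMQ skin and 15.50, 15.92 and 15.99 in Mock skin. Its gap was 0.74, and 0.72 without replicate 3. Cbs and Chac1 met the rule whichever array was left out, though another probe of Cbs, given further on, placed Vanillin above IMQ.

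The aldo-keto reductase relative Akr1cl read 9.10, 9.10 and 8.84 in Vanillin skin, 9.92, 9.85 and 9.62 in IMQ skin and 10.07, 10.10 and 10.34 in Mock skin. Fabp9, of the fatty acid-binding proteins, had a gap of 0.86 and stood apart on all Vanillin arrays. Car7, a carbonic anhydrase, read 9.83, 9.69 and 7.95 in Vanillin skin and 9.85, 10.11 and 9.96 in Mock skin, with an IMQ mean of 10.07. Replicate 1 lay 0.02 below the lowest Mock array, and the gap of 0.82 was 0.21 without replicate 3.

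**Figure D3:**
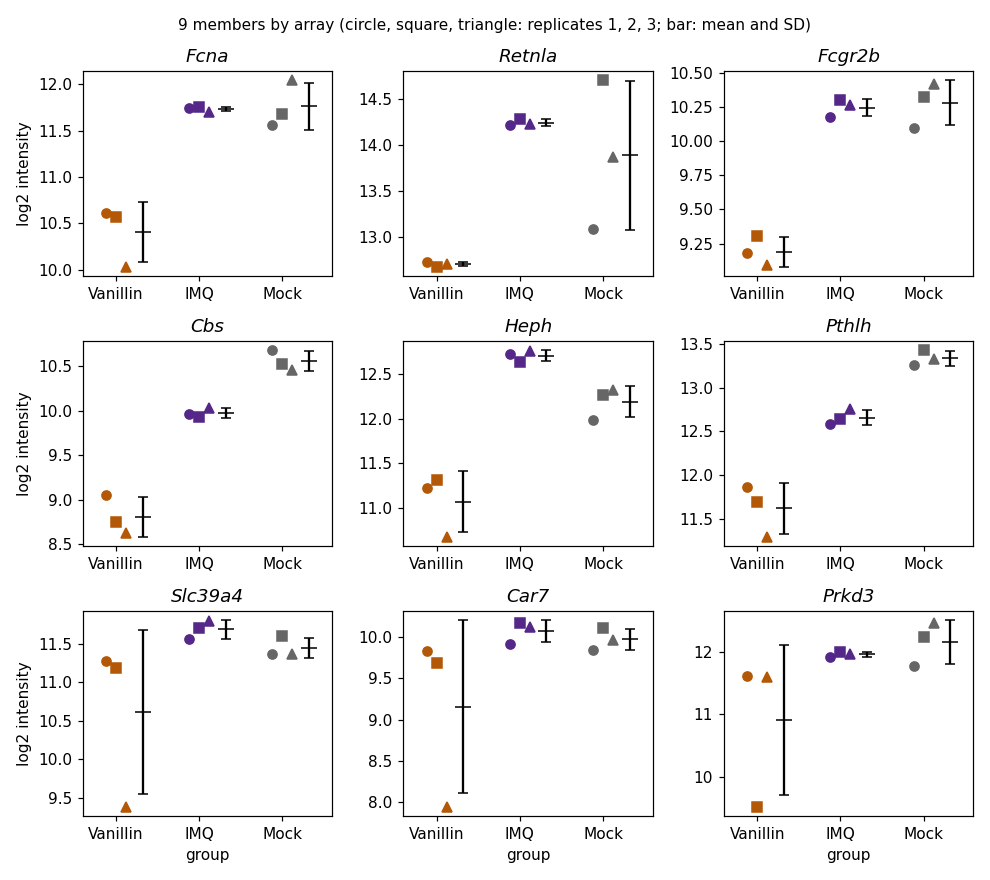
Log2 intensity of 9 genes on each array, with Vanillin, IMQ and Mock from left to right; circles, squares and triangles are replicates 1, 2 and 3, and bars give the mean and SD of 3 arrays. In the first 6 panels every Vanillin array stands well below the other groups, except for the low Mock array of Retnla, while in Slc39a4, Car7 and Prkd3 a single Vanillin array lies far below its group.

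Hormones, receptors and signalling molecules were the largest set, with 13 genes. Pthlh encodes parathyroid hormone-related protein, a keratinocyte product that acts on hair growth and differentiation. It read 11.86, 11.70 and 11.30 in Vanillin skin, 12.58, 12.64 and 12.75 in IMQ skin and 13.26, 13.43 and 13.33 in Mock skin, with no overlap between the 3 groups. Grpr, the receptor for gastrin-releasing peptide, which carries itch signals in the mouse spinal cord, read 7.65, 6.98 and 6.88 in Vanillin skin, 8.99, 9.05 and 9.02 in IMQ skin and 8.14, 8.27 and 8.38 in Mock skin. The 3 groups were again separate, in the order Vanillin, Mock and IMQ. Rnd3, a small GTP-binding protein gene, read 10.62, 10.85 and 10.66 in Vanillin skin, 11.64, 11.88 and 12.03 in IMQ skin and 11.93, 12.05 and 12.45 in Mock skin.

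Anxa3, a calcium- and phospholipid-binding annexin, read 8.57, 8.87 and 8.53 in Vanillin skin. It read 9.94, 9.94 and 9.78 in IMQ skin and 9.30, 10.26 and 10.41 in Mock skin, where replicate 1 was low. Plxna1, a receptor of semaphorins, was the member with the smallest gap and with the smallest spread of Vanillin arrays, at 11.86, 11.84 and 11.86. IMQ skin read 12.58, 12.55 and 12.55 and Mock skin read 12.40, 12.85 and 12.93. Its Vanillin arrays lay at least 0.54 below every other array.

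Several signalling genes followed 1 array. Prkd3, a protein kinase D, read 11.61, 9.53 and 11.60 in Vanillin skin, averaged 11.96 ± 0.04 in IMQ skin (SD, n = 3) and read 11.78, 12.24 and 12.46 in Mock skin. Its gap of 1.04 rested on replicate 2, and it no longer met the rule without that array. Ptpru, a receptor tyrosine phosphatase, read 12.92, 12.81 and 11.53 in Vanillin skin, 13.50, 13.54 and 13.58 in IMQ skin and 13.13, 13.43 and 13.12 in Mock skin, with a gap of 0.36 without replicate 3.

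Olfr998, an olfactory receptor gene, read 8.19, 8.21 and 7.15 in Vanillin skin, 9.72, 9.72 and 9.86 in IMQ skin and 8.68, 8.96 and 8.69 in Mock skin. Its gap of 0.93 was 0.58 without replicate 3. The thromboxane A2 receptor Tbxa2r had a gap of 0.43 without replicate 3, the adhesion molecule Cadm4 one of 0.49, and the diacylglycerol kinase Dgkg one of 0.36. For Lamtor1, a subunit of the lysosomal Ragulator complex, it was 0.53, and for the neuronal small GTPase Rit2 it was 0.15. Each of these 5 lay above 0.7 with all arrays.

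Genes of RNA, chromatin and protein handling numbered 6. Cirbp and Csdc2 both encode RNA-binding proteins, the first induced by cold and the second named for its cold shock domain. Cirbp read 11.73, 11.87 and 11.92 in Vanillin skin, 12.61, 12.54 and 12.55 in IMQ skin and 12.48, 12.81 and 12.95 in Mock skin. Csdc2 read 13.24, 13.17 and 12.96 in Vanillin skin, 13.87, 13.76 and 13.88 in IMQ skin and 14.09, 14.46 and 14.42 in Mock skin. For both genes every Vanillin array lay more than 0.5 below the other groups, and the gaps were 0.73 and 0.72. Cirbp did not meet the rule without Vanillin replicate 1, and Csdc2 did not without Vanillin replicate 3, IMQ replicate 1 or IMQ replicate 3.

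Smarca2, an ATPase of the SWI/SNF chromatin remodelling complex, read 8.73, 8.81 and 8.67 in Vanillin skin, 9.56, 9.61 and 9.55 in IMQ skin and 9.35, 9.72 and 9.95 in Mock skin. The endoplasmic reticulum cochaperone Dnajb11 read 9.18, 9.34 and 9.09 in Vanillin skin, 10.01, 10.21 and 10.04 in IMQ skin and 9.72, 9.98 and 10.14 in Mock skin. Both stood apart on all 3 Vanillin arrays, though other probes of Dnajb11, given further on, did not place Vanillin lowest. Tmem115, a Golgi membrane protein, matched Prkd3 in its low array, with 11.67, 9.53 and 11.60 in Vanillin skin. Its IMQ arrays began at 11.67, 0.000419 above the highest Vanillin array. The zinc finger gene Zfp799 had a gap of 0.92, and 0.68 without replicate 3.

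Vesicles, cilia and matrix gave 4 genes. Cfap70, a protein of the ciliary axoneme, read 8.41, 8.41 and 7.00 in Vanillin skin, 8.96, 9.06 and 8.88 in IMQ skin and 9.29, 9.38 and 9.09 in Mock skin. Snorc, a cartilage proteoglycan, had a gap of 0.86 and stayed above the threshold with any array left out. Cplx2, a complexin of synaptic vesicle release, had a gap of 0.78 and one of 0.64 without replicate 3. Nsg2, a neuronal vesicle protein, had gaps of 0.79 and 0.25.

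The last 6 genes have no role assigned here. Gm11567 read 14.36, 14.48 and 14.41 in Vanillin skin, 15.49, 15.46 and 15.45 in IMQ skin and 15.64, 15.59 and 15.89 in Mock skin. Its Vanillin arrays lay 0.97 below every other array, the widest such distance of the 49. 0610040J01Rik and 2310061N02Rik also stood apart on every Vanillin array, with gaps of 1.22 and 0.87. A630072M18Rik, Pdzrn4 and a probe named ABP1, an old symbol shared by more than 1 gene, had gaps of 0.72, 0.79 and 0.87. Without Vanillin replicate 3 these were 0.25, 0.32 and 0.39. Pdzrn4 read 9.62, 9.60 and 8.18 in Vanillin skin, 9.94, 9.95 and 9.90 in IMQ skin and 9.95, 10.20 and 10.001 in Mock skin. A630072M18Rik read 8.48, 8.47 and 7.07 in Vanillin skin, 9.52, 9.60 and 9.54 in IMQ skin and 8.60, 8.84 and 8.73 in Mock skin. In both, replicate 3 was the low array.

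Of the 49 genes, 6 lay on chromosome 16 (Retnla, Cd200r2, Dgkg, Dnajb11, Meltf and 2310061N02Rik), which carried 3.22% of all named genes with a known chromosome. The remaining members lay on most other chromosomes, with at most 4 on any of them. Of gene families read from symbols, the set held 2 solute carriers of the Slc series (4.08%, against 2.0% of all named genes), 1 olfactory receptor (2.04%, against 2.98%) and 4 predicted genes (8.16%, against 6.61%).

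Other probes of the same genes were read on the same arrays, but they are by definition probes that did not meet the rule. A probe with a mean of 8 or more, a gap of 0.7 and no overlap of arrays would itself have been a member. There were 15 other probes for 12 genes. In 7 of the 15 the Vanillin mean lay below both other means, and in 1, a dim probe of Fcgr2b with a mean of 4.88, the gap reached 0.7. Of the 9 probes with a mean of 8 or more, 5 lay below both. Vanillin lay below Mock in 12 of the 15 and below IMQ in 9. The same shares over all probes were not computed, so these counts have no background to be read against. None of the 5 probes brighter than the member probe reached a gap of 0.7, an outcome that the rule largely fixed. The second probe of Atp2c2 averaged 11.04 in Vanillin skin, 11.52 in IMQ skin and 12.27 in Mock skin. The brighter probe of Smarca2 averaged 13.01, 13.38 and 13.80 in Vanillin, IMQ and Mock skin. Both kept Vanillin lowest, with gaps of 0.48 and 0.37.

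For 6 genes another probe did not place Vanillin lowest. The brighter probe of Cbs averaged 11.59 in Vanillin skin, 10.99 in IMQ skin and 12.54 in Mock skin, so that Vanillin lay above IMQ. The second probe of Tirap had the same order, at 8.63 in Vanillin skin, 8.22 in IMQ skin and 9.03 in Mock skin. So did both other probes of Cacnb1, the brighter of them at 9.66 in Vanillin skin, 8.98 in IMQ skin and 10.03 in Mock skin.

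A dim probe of Pdzrn4 averaged 6.45 in Vanillin skin, 5.83 in IMQ skin and 7.54 in Mock skin. The bright probe of Dnajb11 averaged 12.88 in Vanillin skin, 13.87 in IMQ skin and 12.84 in Mock skin, where Vanillin lay at the Mock level. A dim probe of Dnajb11 averaged 7.69 in Vanillin skin, 7.77 in IMQ skin and 7.42 in Mock skin. The dim probe of Plxna1 averaged 6.90 in Vanillin skin, 6.78 in IMQ skin and 6.0 in Mock skin. Fcgr2b had a brighter probe that averaged 10.97 in Vanillin skin and 11.01 in IMQ skin, against 11.74 in Mock skin, so its 2 treated groups were close. Which probe follows the transcript was not tested, since no probe sequences were used here.

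**Figure D4:**
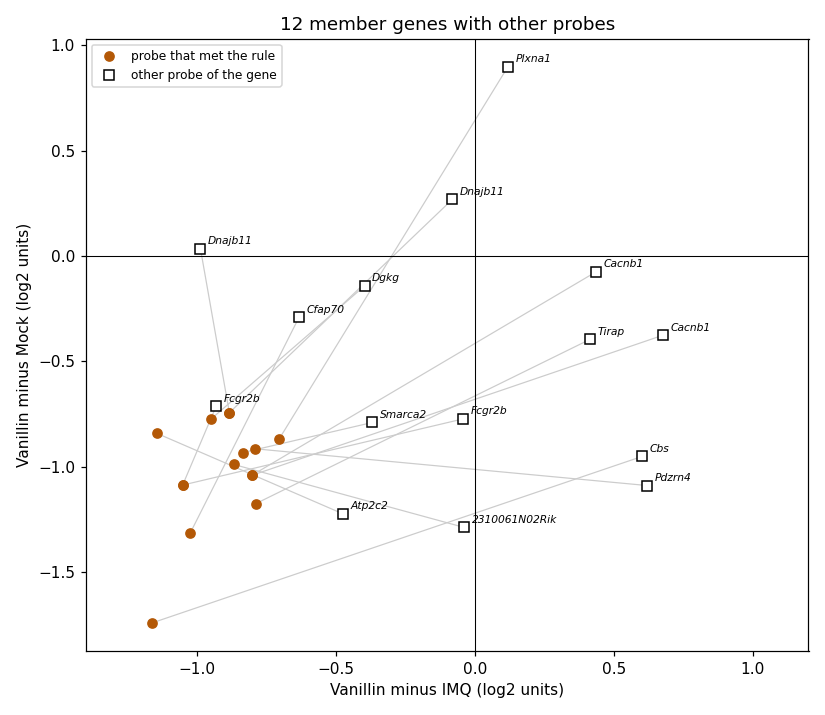
Vanillin minus Mock against Vanillin minus IMQ, in log2 units, for the 12 genes with more than 1 probe; filled circles are the probes that met the rule, open squares the other probes, and grey lines join probes of a gene. All filled circles lie in the lower left by the rule, while 8 of the 15 squares, which are probes that did not meet it, lie outside.

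Between IMQ and Mock skin, 11 of the 49 genes changed, among them a fall of Pthlh and Cbs and a rise of Grpr and Heph. The rule set no condition on this comparison itself, but it used all the IMQ and Mock arrays. The shares and sizes given for members are therefore not free of the choice, and how far they depend on it was not tested. The 11 were 22.4% of members (limma, Benjamini-Hochberg adjusted p under 0.05 over all probes). Among all probes 53.6% passed, and among probes with a mean of 8 or more 59.7%. Of the 11, 4 rose, against 24.0% of all probes and 26.2% of those with a mean of 8 or more, and 7 fell, against 29.6% and 33.6%. The spread of the Vanillin arrays enters the shared error of this fit. With only the 6 IMQ and Mock arrays in the fit, 18 members passed (36.7%; 8 higher and 10 lower), against 59.2% of all probes. With array weights 28 members passed (57.1%), against 75.0% of all probes. The size of the IMQ minus Mock difference had a median of 0.23 log2 units over members and 0.43 over all probes. No member reached 1 log2 unit, as 14.0% of all probes did, and at an unadjusted p under 0.05 there were 14 members (28.6%), against 59.1% of all probes. All IMQ arrays lay above all Mock arrays in 9 members, against 31.9% of all probes, and below them in 13, against 36.1%.

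Among the 7 that fell, Pthlh changed by -0.68 ± 0.14 log2 units (SE, limma adjusted p = 0.0036) and the unassigned gene 0610040J01Rik by -0.64 ± 0.14 (limma adjusted p = 0.0041). Cbs changed by -0.58 ± 0.12 (limma adjusted p = 0.0037) and Csdc2 by -0.49 ± 0.12 (limma adjusted p = 0.0088). That Vanillin lay further below Mock than IMQ did for these genes was fixed by the rule. Tirap changed by -0.39 ± 0.12 (limma adjusted p = 0.024), Akr1cl by -0.38 ± 0.12 (limma adjusted p = 0.029) and Chac1 by -0.36 ± 0.13 (limma adjusted p = 0.038).

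Among the 4 that rose, Olfr998 changed by 0.99 ± 0.26 (SE, limma adjusted p = 0.011) and Grpr by 0.76 ± 0.19 (limma adjusted p = 0.0077). Heph changed by 0.51 ± 0.17 (limma adjusted p = 0.029) and Atp2c2 by 0.30 ± 0.11 (limma adjusted p = 0.047). For these 4, IMQ skin was raised over Mock skin, and the rule had placed Vanillin skin below both. The other probe of Atp2c2 ran the opposite way, with an IMQ mean of 11.52 against 12.27 in Mock skin, while the other probe of Cbs ran the same way as its member probe.

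The calls for Pthlh, 0610040J01Rik, Cbs, Csdc2 and Grpr held under each alternative that kept their probe. The fit with 1 probe a gene used the brighter probe of Cbs in place of the member probe. Of the other 6 calls, that for Olfr998 was lost only at an adjusted p under 0.01. Those for Heph and Atp2c2 were lost without any 1 of the IMQ arrays or without Mock replicate 1, and that for Atp2c2 also without Mock replicate 2 or Vanillin replicate 2, with limma adjusted p up to 0.096 for Heph and 0.12 for Atp2c2. The call for Tirap was lost without IMQ replicate 1 or 2 or Mock replicate 3 (adjusted p up to 0.085), and that for Akr1cl without IMQ replicate 2 or 3 or Mock replicate 3 (up to 0.12). Chac1 lost its call without any 1 of the IMQ arrays, Mock replicate 2 or 3 or Vanillin replicate 1 or 2, and with only the IMQ and Mock arrays in the fit (up to 0.12). Without IMQ replicate 1, 2 or 3 the count of 11 was 7, 6 and 7, against 44.3%, 47.9% and 43.7% of all probes, and without Vanillin replicate 3 it was 18, against 60.2%.

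**Figure D5:**
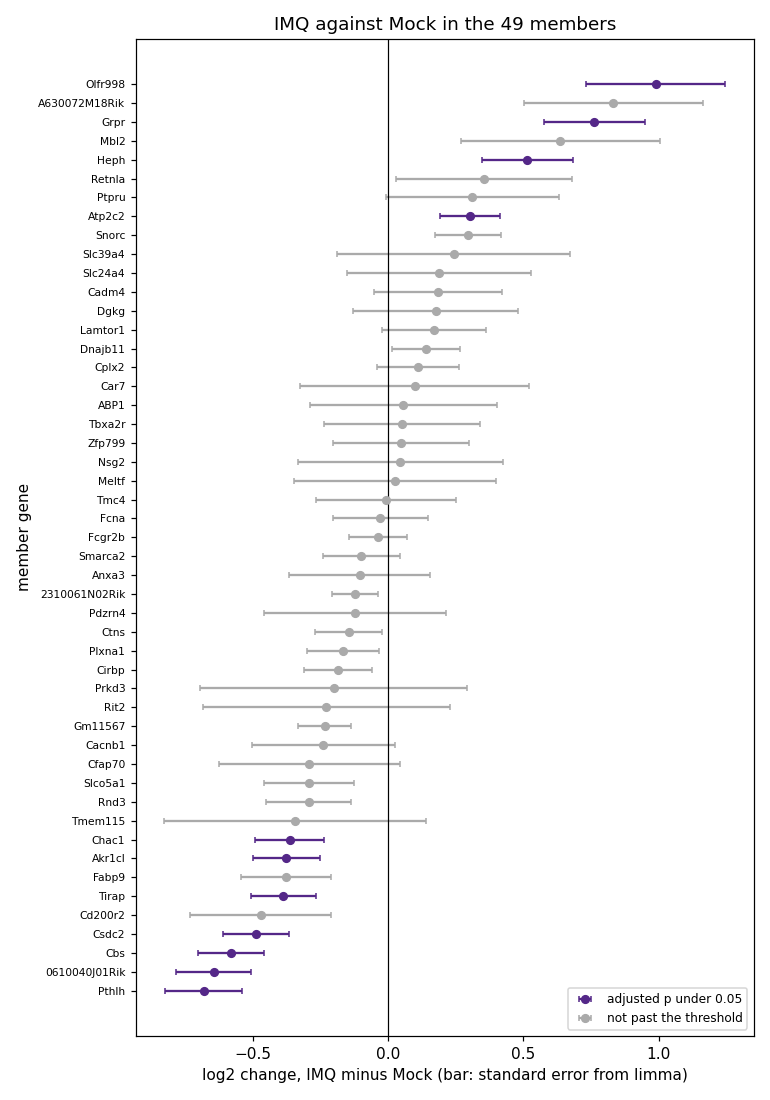
IMQ minus Mock in log2 units for each of the 49 genes, with the standard error from limma as bars; purple points passed an adjusted p under 0.05. There are 4 purple points right of 0 and 7 left of it, and no gene reaches 1 log2 unit.

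Other genes of the same systems were read from lists, and with Vanillin set against IMQ, 41.2% of all probes were called (24.3% higher and 17.0% lower), and against Mock 26.7% were called (11.9% higher and 14.7% lower). Of 16 markers of dendritic cells and macrophages, which carry Fcgr2b and make Fcna and Retnla, 5 were higher, 3 lower and 8 not called in Vanillin against IMQ, with a median of -0.07 log2 units. Against Mock, 4 were higher, 3 lower and 9 not called, with a median of 0.03. Among them Csf1r, the receptor for macrophage colony-stimulating factor, averaged 12.92 ± 0.06 in Vanillin skin and 13.40 ± 0.03 in IMQ skin (SD, n = 3; limma adjusted p = 0.014). Mertk, a receptor by which macrophages clear dying cells, averaged 10.71 ± 0.03 in Vanillin skin and 11.77 ± 0.04 in Mock skin (SD, n = 3; limma adjusted p = 1.9e-05), but 10.49 ± 0.02 in IMQ skin. Adgre1, a surface receptor of mouse macrophages, averaged 11.50 ± 0.07 in Vanillin skin, 11.61 ± 0.0038 in IMQ skin and 9.58 ± 0.14 in Mock skin (SD, n = 3 each). Against IMQ the count of 3 lower was 0 without IMQ replicate 1. The count of 5 higher was 3 without any 1 of the IMQ arrays or Mock replicate 2, and 2 without Vanillin replicate 1 or 2.

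In MHC class II presentation, 2 of 8 genes were higher, 3 lower and 3 not called against IMQ, and 2 were higher, 2 lower and 4 not called against Mock. Against IMQ the 3 lower were 1 without IMQ replicate 1, IMQ replicate 2 or Vanillin replicate 1, and the 2 higher were 1 without IMQ replicate 1, IMQ replicate 3 or Vanillin replicate 1. The invariant chain gene Cd74 met the conditions on values and was left out by symbol. Cd74 is counted among the lower genes against IMQ and against Mock, differences that those conditions used. The probe of Cd74 in the list averaged 13.44 ± 0.06 in Vanillin skin, 14.49 ± 0.04 in IMQ skin and 14.18 ± 0.27 in Mock skin (SD, n = 3 each). Another of its 3 probes also met the conditions, averaging 11.08 in Vanillin skin, 12.05 in IMQ skin and 12.49 in Mock skin. There IMQ lay below Mock, unlike on the list's probe, and the remaining probe did not meet the conditions. In the list of NF-kB and inflammatory response, the pathway on which Tirap acts, 11 of 20 genes were higher, 2 lower and 7 not called against IMQ, and 11 were higher, 1 lower (4 without Mock replicate 1) and 8 not called against Mock. Cd14, the coreceptor of TLR4 and a gene of the macrophage list, rose by 0.94 against IMQ and by 1.17 against Mock. More genes of that list were called higher than lower, while the member probe of Tirap lay lowest with vanillin. That probe did not meet the rule without Vanillin replicate 3. The other probe of Tirap averaged 8.63 in Vanillin skin and 8.22 in IMQ skin, so Vanillin lay above IMQ there.

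Of 20 hair follicle and hair shaft genes, 2 were higher, 2 lower and 16 not called against IMQ, and 0 were higher, 12 lower and 8 not called against Mock (7 lower with only the Vanillin and Mock arrays in the fit). Against IMQ the 2 lower were 1 without any 1 of the IMQ arrays or Vanillin replicate 1 or 2, and 4 without Mock replicate 3 or Vanillin replicate 3. The 2 higher were 5 without Mock replicate 1. In IMQ against Mock, 1 of the 20 was higher, 13 lower and 6 not called. Of all probes, 24.0% were higher and 29.6% lower in that comparison. Krt28, a keratin of the inner root sheath, met the conditions on values, at 14.90 ± 0.05 in Vanillin skin, 15.81 ± 0.04 in IMQ skin and 15.77 ± 0.32 in Mock skin (SD, n = 3 each). With Vanillin set against IMQ and against Mock, Krt28 is counted among the lower genes, and those conditions used both differences. Axon guidance and synapse genes, the list that holds Plxna1, gave 5 higher, 5 lower and 12 not called of 22 against IMQ, and 1 higher, 8 lower and 13 not called against Mock. Plxna1 is counted among the lower genes in both, having been chosen by these differences. The 5 higher were 3 without IMQ replicate 2, IMQ replicate 3 or Vanillin replicate 1, and the 1 higher was 2 without any 1 of the Mock arrays. In IMQ against Mock, 4 genes of this list were higher, 9 lower and 9 not called. Nrp2, a semaphorin coreceptor, averaged 13.46 ± 0.07 in Vanillin skin, 14.21 ± 0.11 in IMQ skin and 14.12 ± 0.20 in Mock skin (SD, n = 3 each). It fell by 0.75 against IMQ (limma adjusted p = 0.0023) and by 0.66 against Mock (limma adjusted p = 0.0030), just short of the gap of 0.7.

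Markers of other cell types were set beside the low array of many members. Levels of 6 eccrine gland genes averaged 9.23, 9.31 and 7.55 on the Vanillin arrays, 9.02, 8.97 and 7.93 on the IMQ arrays and 7.75, 7.79 and 7.69 on the Mock arrays. The low Vanillin array was replicate 3, which lay near IMQ replicate 3 and the Mock arrays, so a low level was not particular to it. The keratin gene Krt8, at 10.07, 9.97 and the floor of 0 in Vanillin skin, carried most of the difference between the Vanillin arrays. The part of Krt8 in the low values of the members on Vanillin replicate 3 was not tested. Neutrophil markers averaged 9.59, 9.55 and 9.34 on the Vanillin arrays, against 9.07, 9.07 and 8.98 on the IMQ arrays and 8.52, 8.53 and 8.54 on the Mock arrays. Skeletal muscle markers averaged 14.84, 14.78 and 14.79 in Vanillin skin, 14.34, 14.38 and 14.35 in IMQ skin and 14.74, 14.82 and 14.77 in Mock skin, so that Vanillin replicate 3 did not stand apart in them.

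Genes just inside the threshold were Plxna1, Mbl2 and A630072M18Rik, with gaps of 0.705, 0.706 and 0.716. Just outside lay Fam160a2, Farp1 and Pdzd8, with gaps of 0.690, 0.689 and 0.688. Farp1, a guanine nucleotide exchange factor, read 10.78, 10.87 and 10.93 in Vanillin skin, 11.51, 11.53 and 11.60 in IMQ skin and 11.44, 11.98 and 12.26 in Mock skin, with all Vanillin arrays lowest. Fam160a2 read 11.56, 11.37 and 10.86 in Vanillin skin, 11.95, 11.93 and 11.99 in IMQ skin and 11.73, 12.14 and 12.16 in Mock skin. Pdzd8 read 8.89, 8.75 and 8.85 in Vanillin skin, 9.53, 9.54 and 9.49 in IMQ skin and 9.85, 10.06 and 10.37 in Mock skin, with no overlap between the 3 groups. A further 29 named probes met the gap and the mean but had a Vanillin array that overlapped the other groups. The widest of these was a probe of Tead1, which read 13.52, 8.28 and 13.68 in Vanillin skin against IMQ and Mock means of 13.61 and 13.39.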

How the data were processed

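Total RNA of 9 samples was hybridised to one-colour Cy5 arrays, per the labels' protocols. The deposited table holds linear probe intensities of 26423 probes, with medians already nearly equal between arrays. Of tools, limma is credited in the submitters' processing notes without a version, and for the scanner, background correction and filters the sources used here give nothing. Values under 1 were set to 1 and log2 was taken, with no further normalization. Array symbols were updated through a RefSeq table of GRCm38.p6, used for names. Symbols of 18213 probes were current, 2126 were updated from older ones and 38 stayed as given.

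Group means were fitted to all 9 arrays with lmFit and eBayes of limma 3.58.1 under R 4.3.3, and p-values were adjusted by Benjamini-Hochberg over all probes, with calls at an adjusted p under 0.05. The fit was tested on simulated data. Members, the 42 gene and marker lists, the tests and the alternatives were chosen with earlier results of these data known. Members named by rule, with every value, are the 12 with the largest gap, the 6 with the highest mean, the 5 largest rises and falls of IMQ against Mock that passed, those in a list, those whose probes disagree and those at the threshold, predicted genes being passed over. Further members, among them Slc39a4, Smarca2, Cirbp and the predicted genes Gm11567 and A630072M18Rik, were named or given with every value after their values were seen. Genes of a list were named from the 4 with the smallest p in either comparison. Cd74, Krt28, Krt84, Krt8 and Tead1 were chosen after their values were seen.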

Additional observations from a re-analysis of the deposited data

How the results depend on the processing

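The number of members, 49, was 49 after quantile normalization or median centring, 39 with an offset of 50, and 53 and 37 with a mean of at least 7 or 9. It moved to 175 with a gap of 0.5, to 14 with a gap of 1 and to 78 without the condition on single arrays, and leaving out 1 array gave 37 to 119. The 11 members called in IMQ against Mock became 28 with array weights (75.0% of all probes were then called), 18 when only the IMQ and Mock arrays were fitted (59.2%), and 5 at an adjusted p under 0.01 (39.0%). With 1 array left out they were 6 to 18, with 43.7% to 60.2% of all probes. Replicate numbers did not pair the arrays: deviations of same-numbered arrays correlated at -0.27 to 0.22, and with the replicate number as a block 7 members were called, against 51.5% of all probes, Heph, Tirap, Akr1cl and Chac1 losing their calls. Of the 612 list probes that are not members, 298 were called in Vanillin against IMQ, 416 with array weights and 165 at an adjusted p under 0.01. They were 269 with the block and 191 to 347 with 1 array left out. The lowest came without IMQ replicate 1 or 3. In Vanillin against Mock 287 were called, 367 with array weights, 226 with only the Vanillin and Mock arrays in the fit and 212 at an adjusted p under 0.01. They were 264 with the block and 248 to 319 with 1 array left out. Across alternatives 21 uncalled members passed in at least 1, and 0 called members changed sign. The causes were not tested. Dim probes limit the comparison with other probes, 6 of 15 having a mean under 8, and all 15 are probes that did not meet the rule.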

Other observations

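Of the 15 probes with no gene name that met the conditions on values, 1, chosen after its values were seen, read 12.85, 13.01 and 12.80 log2 units in Vanillin skin, 13.90, 13.94 and 13.88 in IMQ skin and 14.91, 14.79 and 14.75 in Mock skin, with no overlap between the groups. Krt84, a hair keratin left out by its symbol, read 11.48, 11.56 and 11.35 in Vanillin skin, 13.24, 13.27 and 13.24 in IMQ skin and 12.53, 13.07 and 13.11 in Mock skin. Its gap of 1.44 was wider than that of any of the 49 members.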
